A study of Mus musculus with 3 samples.

Results

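The enzymes of de novo purine synthesis were followed in mouse dendritic cell cultures as 10 genes of the 32285 measured: Prps1, Ppat, Gart, Pfas, Paics, Adsl, Atic, Impdh1, Impdh2 and Gmps. They were chosen by symbol, from what their products do, and not from their values. All 10 were found under these symbols. De novo purine synthesis builds the purine ring atom by atom on a ribose phosphate, from glutamine, glycine, aspartate, bicarbonate and formyl groups carried by folate. The product, IMP, is the branch point from which AMP and GMP are made. Dividing cells use the pathway to double their nucleic acids, whereas resting cells rely more on salvage of free purine bases.

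Each enzyme has a place in that order. Prps1 makes phosphoribosyl pyrophosphate (PRPP), the ribose donor. Ppat, the amidotransferase of the committed step, moves an amide from glutamine to PRPP. Gart, Pfas, Paics, Adsl and Atic carry the ring to IMP, and among them Pfas uses glutamine, Gart and Atic use formyl folate, and Adsl also acts in the branch to AMP. Impdh1 and Impdh2 are isozymes that oxidise IMP towards GMP, and Gmps completes GMP with an amide from glutamine. DON (6-diazo-5-oxo-L-norleucine), a glutamine analogue, blocks enzymes of this kind, so Ppat, Pfas and Gmps are known targets of it at the protein level. The values below are mRNA and say nothing of enzyme activity.

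All cultures were wild-type C57BL/6 cells grown in vitro with FLT3L, the cytokine on which dendritic cells depend, scraped from their wells and run on the 10x Genomics 3' single-cell platform. The 3 libraries came from differentiation in 50 µM glutamine, in 2 mM glutamine with 1 µM DON, and in 2 mM glutamine alone as the control. With 1 library per group, no difference between treatments could be tested, and no p-value is given. Whether cells of several mice were pooled is not given in the sources used here.

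The members lie apart in the genome except for Ppat and Paics. On mouse build GRCm38, Ppat spans chr5:76913249-76951578 on the minus strand and Paics chr5:76951307-76967509 on the plus strand. The pair is arranged head to head, and the annotated spans overlap at their starts. Their 3' ends, which this chemistry reads, point away from each other. The remaining members lie on chromosomes 1 (Atic), 3 (Gmps), 6 (Impdh1), 9 (Impdh2), 11 (Pfas), 15 (Adsl), 16 (Gart) and X (Prps1).

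Because most of the members varied together over the classes of cells, as described further on, their promoters were searched for 4 short motifs on both strands. RefSeq windows (GRCm38.p6) from 250 bases before to 50 bases after the start were found for 9 of the 10 members, with Pfas not among them. The E-box CACGTG, which Myc with Max can bind, was present for 3 of these 9, Paics, Atic and Impdh2, and in 7.15% of all 32851 windows. The NRF1 motif was present for 1, Ppat, and in 4.6% of all windows. CCAAT was present for 5 (Gart, Paics, Atic, Impdh2 and Prps1) and in 37.4% of all windows. The amino acid response motif TGATGCAA, which the stress factor Atf4 can bind, was in none of the 9 members' windows and in 0.895% of all. None of the matches shown overlaps a match of another motif, and a match is a run of letters only. The matches of the long motifs are shown with their surroundings, the motif in capitals and 5' to 3' on the strand of the gene. Ppat is at chr5:76951601-76951630 (minus strand, motif 42 bases before the start), Paics at chr5:76951087-76951116 (plus, 203 bases before), Atic at chr1:71557137-71557166 (plus, 7 bases before) and Impdh2 at chr9:108560314-108560343 (plus, 110 bases before).
Ppat: gcttcccgccGCGCAGGCGCgctgacgcga
Paics: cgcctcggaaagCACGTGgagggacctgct
Atic: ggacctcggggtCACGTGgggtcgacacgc
Impdh2: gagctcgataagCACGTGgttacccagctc

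The libraries were of like depth. They held 92002827 UMIs (unique molecules) in 9817 barcodes at 50 µM glutamine, 87611658 in 8962 with DON and 89340379 in 10497 in the control. After filters on depth and mitochondrial share and removal of marked doublets, 9169, 8367 and 9473 cells were used in that order, with a median of 7610, 7910 and 6642 UMIs. The libraries shared between 20 and 31 barcodes per pair. The label calls the cells dendritic cells, and the naming by markers also found cells like progenitors, B lineage cells, neutrophils and monocytes or macrophages, as given with the classes.

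In all cells together, the mRNA of every member was highest at 50 µM glutamine and next highest with DON, though for Impdh1 the DON and control levels lay within counting error. Levels are UMIs scaled to the total of the cells compared (CPM), with exact Poisson 95% intervals, which cover counting error only here and throughout. Summed over the members, the level was 683 CPM at 50 µM, 508 with DON and 451 in the control. An all-cell level mixes the share of each kind of cell with the level inside it, and these are separated further on.

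Prps1 had 25.8 CPM at 50 µM, 20.5 with DON and 17.7 in the control. Ppat had 39.4 CPM at 50 µM (interval 38.0 to 40.8), 30.6 with DON (29.4 to 31.9) and 24.0 in the control (22.9 to 25.2). The 3 intervals of this committed enzyme do not overlap. Among the enzymes that build the ring, Gart, which acts at several steps, had 55.3 CPM at 50 µM, 43.2 with DON and 37.8 in the control. Pfas, the second glutamine user, had 16.6 CPM at 50 µM (1379 UMIs), 9.54 with DON (743 UMIs) and 7.34 in the control (549 UMIs). Pfas was thus the member with the largest plain ratio of 50 µM over control, and it was also among the least counted. Paics, a bifunctional enzyme, had 139.7 CPM at 50 µM, 108 with DON and 94.5 in the control. Adsl had 26.1 CPM at 50 µM, 21.5 with DON and 18.3 in the control. Atic, which closes the ring, had 76.1 CPM at 50 µM, 64.2 with DON and 54.0 in the control. These 3 followed the same order of libraries as Ppat. On the GMP side, Impdh2 had 218 CPM at 50 µM, 139 with DON and 128 in the control. Gmps had 78.3 CPM at 50 µM, 65.8 with DON and 62.9 in the control. Impdh1 had 7.76 CPM at 50 µM (7.17 to 8.38), 5.84 with DON (5.32 to 6.40) and 5.76 in the control (5.23 to 6.33), so the DON and control intervals of this isozyme overlapped almost entirely.

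**Figure D1:**
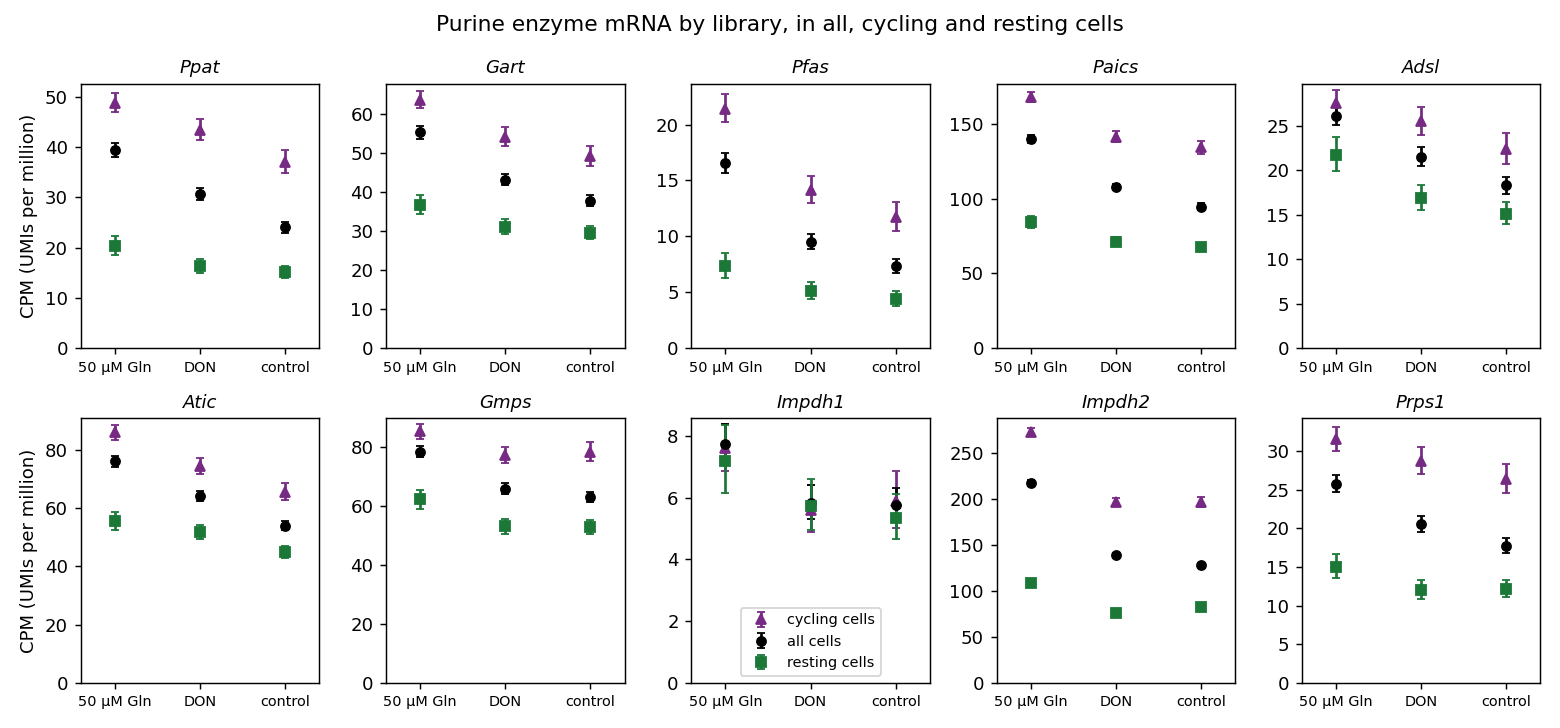
Level of each enzyme's mRNA (CPM, vertical axis from 0) in the 3 libraries, for cycling cells (triangles), all cells (circles) and resting cells (squares), with exact Poisson 95% intervals. For 9 enzymes the cycling cells lie above the resting cells in every library; for Impdh1 the values lie between 5.34 and 7.76 CPM throughout.

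Ratios are given on a log2 scale after adding 5 CPM to both sides, which draws low genes towards 0, and 1.5-fold on that scale was used as the mark for a gene that differed in size. At 50 µM over control, 3 of the 10 members were at least 1.5-fold higher, Ppat (0.61), Pfas (0.81) and Impdh2 (0.74), and none was lower. Of the genes averaging at least 10 CPM, 5.91% were as much higher and 3.66% as much lower. The level minimum was met by 9 members, and Impdh1 fell short of it. The members' median was 0.48, against 0.13 for all genes, and 10.2% of genes lay above the members' median. The other ratios were 0.54 for Paics, 0.50 for Gart, 0.46 for Atic, 0.44 for Prps1, 0.42 for Adsl, 0.30 for Gmps and 0.25 for Impdh1. Without the added 5 CPM, the log2 ratio was 0.71 for Ppat (counting interval 0.63 to 0.80), 1.17 for Pfas (1.03 to 1.32) and 0.76 for Impdh2 (0.73 to 0.80).

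With DON over control the members differed less. None of the 10 was 1.5-fold higher or lower, where 0.179% of genes were higher and 0.906% lower. The median was 0.18, against 0.06 for all genes. The DON-sensitive amidotransferases took no common place within the set. Ppat had the highest ratio of the 10 at 0.30 and Pfas the next at 0.24, whereas Gmps had 0.06, the lowest but for Impdh1 at 0.01. The remaining 6 lay between 0.11 (Impdh2) and 0.23 (Atic). The plain ratio of Impdh1 had an interval of -0.17 to 0.21, which includes 0.

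The direction at 50 µM did not depend on how the libraries were scaled, but its size did. With scaling by the median of ratios between libraries, the median of all genes moved by -0.15 at 50 µM and by -0.05 with DON. The members' medians became 0.32 and 0.12, only Pfas (0.68) stayed past 1.5-fold at 50 µM, and all 10 remained above 0 there, from 0.13 (Gmps) to 0.68. With DON, Impdh1 turned to -0.02.

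Cycling and resting cells were compared inside each library. A cell was called cycling when it held at least 2 UMIs of the proliferation genes Mki67 and Top2a together, resting when it held 0, and neither when it held 1. Cycling cells made up 44.3% of cells at 50 µM (4058), 32.7% with DON (2736) and 23.1% in the control (2187). Resting cells were 44.7%, 56.9% and 67.7% in the same order. The summed level in cycling cells was 813 CPM at 50 µM, 662 with DON and 628 in the control, and in resting cells 419, 340 and 329 CPM. Every library's cycling cells lay above every library's resting cells in this sum. The 2 states also differ in the kinds of cells they hold. At 50 µM, 1605 of the 4058 cycling cells and 186 of the 4095 resting cells were progenitor-like, a class described further on.

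With the 5 CPM added, Impdh2 had the largest cycling over resting ratio in each library. It had 273 CPM in cycling and 109 CPM in resting cells at 50 µM, 197 and 76.6 CPM with DON, and 197 and 82.2 CPM in the control, giving log2 ratios of 1.29, 1.31 and 1.21. Ppat had 48.9 CPM in cycling and 20.4 CPM in resting cells at 50 µM, 43.4 and 16.4 CPM with DON, and 37.1 and 15.1 CPM in the control. Its ratios were 1.09, 1.18 and 1.06, so the 3 cultures gave nearly one value. Paics had 168 CPM in cycling and 84.3 CPM in resting cells at 50 µM, 141 and 71.2 CPM with DON, and 134 and 67.3 CPM in the control. Its ratios of 0.95, 0.94 and 0.95 differed least between libraries. Pfas had 21.4 CPM in cycling and 7.36 CPM in resting cells at 50 µM, 14.1 and 5.12 CPM with DON, and 11.7 and 4.40 CPM in the control, with ratios of 1.10, 0.92 and 0.83. Without the added 5 CPM, the ratio of Pfas was above that of Impdh2 in each library. That of Ppat was above it with DON and in the control. The ratios of Prps1 were 0.87, 0.98 and 0.87 at 50 µM, with DON and in the control, and those of Gart were 0.72, 0.72 and 0.65. These 6 members were at least 1.5-fold higher in cycling cells in all 3 libraries, where 10.4% of the 7836 genes tested were.

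The other 4 members contrasted less. Atic had ratios of 0.59 at 50 µM, 0.48 with DON and 0.50 in the control, and passed 1.5-fold at 50 µM alone. Gmps had 0.43, 0.50 and 0.53 and Adsl 0.28, 0.48 and 0.44 in the same order. Impdh1 had 0.05, -0.02 and 0.08: its level was 7.60 CPM in cycling and 7.18 CPM in resting cells at 50 µM, 5.61 and 5.73 CPM with DON, and 5.90 and 5.34 CPM in the control. Counted by library, 7, 6 and 6 of the 10 members were higher in cycling cells at 50 µM, with DON and in the control, against 12.1%, 12.7% and 12.5% of genes. The members' medians were 0.79, 0.82 and 0.74, and those of all genes -0.02, 0.00 and 0.02. A sign test over 3 libraries cannot give a p below 0.25, so none was made.

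Depth moves with this contrast, and a deeper cell is also more likely to show a UMI of Mki67 or Top2a. What part of the depth difference comes from the call itself was not tested. The median was 11688 UMIs in cycling and 5437 in resting cells at 50 µM, 12788 and 6585 with DON, and 11713 and 5848 in the control. When the call was made on cells thinned to 2000 UMIs each, the members' medians dropped to 0.32 at 50 µM, 0.51 with DON and 0.49 in the control. Impdh2 stayed past 1.5-fold in every library, at 0.79, 0.89 and 0.91. A thinned call also places shallowly sampled cycling cells among the resting ones. The share of cells with an Impdh2 UMI was also taken, with cycling and resting called at full depth and only the enzyme's UMIs thinned. Cells under 2000 UMIs were left out of the thinned shares. The effect of depth on the call is thus not removed from them. The share after thinning was 39.4% in cycling and 17.4% in resting cells at 50 µM, 30.3% and 11.9% with DON, and 28.6% and 13.1% in the control. Before thinning the shares were 88.0% in cycling and 37.0% in resting cells at 50 µM, 82.7% and 34.2% with DON, and 80.4% and 34.4% in the control.

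Cycling cells were not uniform. When cells were split by their Mki67 and Top2a UMIs into 0, 1, 2 to 4, 5 to 9, and 10 or more, the summed level at 50 µM was 419, 598, 830.3, 937 and 792 CPM in that order. With DON it was 339.9, 452, 671, 801 and 636 CPM, and in the control 329, 444, 640.3, 735 and 605 CPM. In all 3 libraries the peak lay at 5 to 9 UMIs and the cells with most proliferation UMIs were lower. Ppat showed this most plainly, with 20.4, 32.7, 63.9, 76.0 and 42.3 CPM at 50 µM, 16.4, 27.7, 50.8, 68.8 and 37.4 CPM with DON, and 15.1, 23.3, 41.6, 50.0 and 33.5 CPM in the control. Impdh2 was not lower in the last group at 50 µM and hardly so in the control, with 256 CPM at 5 to 9 and 282 CPM at 10 or more at 50 µM, 224 and 196 CPM with DON, and 203 and 199 CPM in the control. The groups hold different cells, from 331 to 6414 each, and the median depth at 50 µM climbed from 5437 UMIs in the lowest group to 12567 in the highest.

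**Figure D2:**
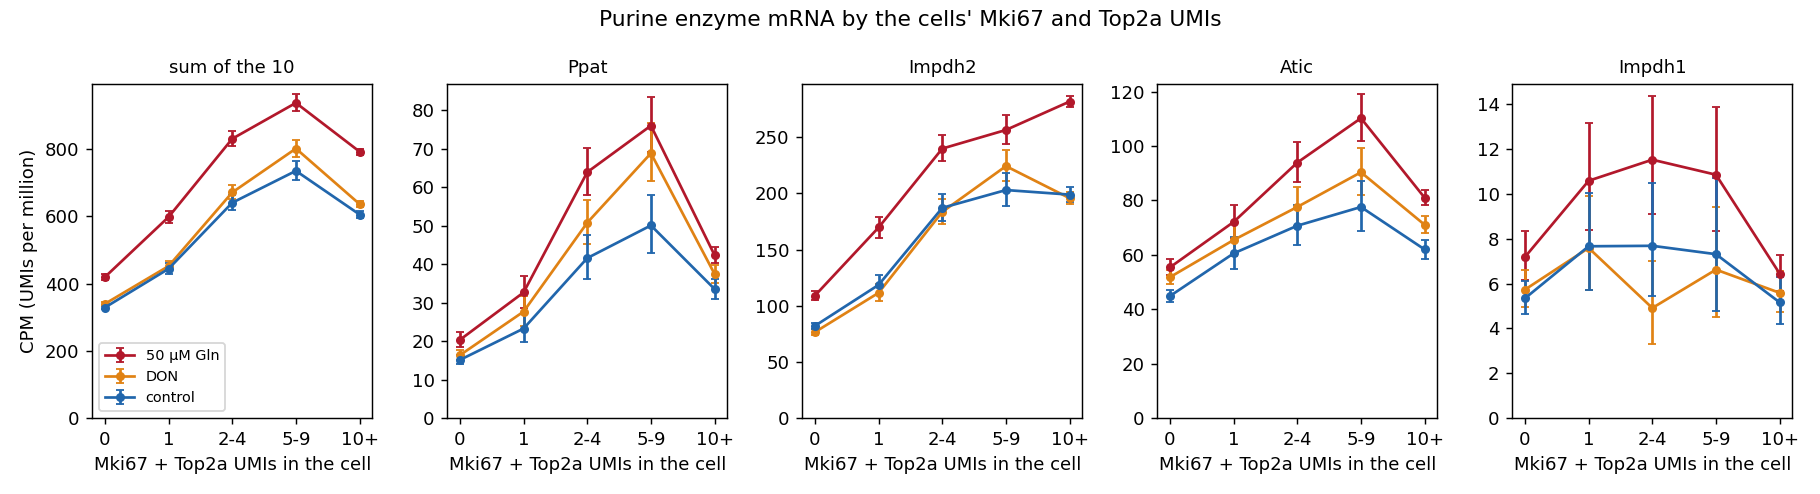
Level (CPM, vertical axis from 0) of the summed enzymes and of Ppat, Impdh2, Atic and Impdh1 in cells grouped by their Mki67 plus Top2a UMIs (horizontal axis), 1 line per library, with exact Poisson 95% intervals. The sum peaks at 5 to 9 UMIs in each library, at 937, 801 and 735 CPM for 50 µM, DON and control, and Impdh1 lies between 4.91 and 11.5 CPM.

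Since the libraries differed in their share of cycling cells, treatments were also compared within each state. In cycling cells at 50 µM over control, 1 of 10 members, Pfas at 0.66, was 1.5-fold higher (background 2.89%). The members' median was 0.33, against 0.10 for all genes, with Impdh2 at 0.46, Atic at 0.37 and Ppat at 0.36. With DON, none was (0.273%), and the median was 0.12 against 0.05. In resting cells none was 1.5-fold higher at 50 µM (3.29%), and the median was 0.29 against 0.14 for all genes, from 0.22 (Gmps and Prps1) to 0.41 (Adsl). With DON the resting median was 0.07 against 0.06, with none higher (0.391%). All 10 members stayed above 0 at 50 µM in both states. Scaling by the median of ratios gave medians at 50 µM of 0.19 in cycling and 0.11 in resting cells, and the thinned call gave 0.48 in resting cells.

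Weighting each library to the control's make-up lowered the members' medians, by an amount that differed between the weightings. With cycling states weighted to the control's shares, the members' median at 50 µM was 0.32 in place of 0.48, and no member passed 1.5-fold (2.58% of genes). With classes of cells weighted to the control's shares, the median was 0.18, against 0.10 for all genes, and again none passed (0.732%). Ppat had 0.11 under the class weights in place of 0.61, Pfas 0.40 in place of 0.81 and Impdh2 0.31 in place of 0.74. With DON, the medians were 0.08 by cycling state and 0.11 by class, with none past 1.5-fold (0.204% and 0.0643% of genes). Under the class weights with DON, Gmps turned to -0.01, and under the cycling weights Impdh2 turned to -0.04.

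Classes of cells were built by clustering without the 10 members and named from marker lists, with the ending -like. Xcr1 and Batf3 were among the leading genes of both cDC1-like clusters, and the same held for Cd209a in the largest cDC2-like cluster, Ccr7 and Fscn1 in the mature DC-like cluster, and Cd34 in both progenitor-like clusters. Asns and Shmt2 were also among the leading genes of the larger progenitor-like cluster, of whose 1764 cells 1111 came from the 50 µM library. The progenitor-like class was 21.3% of cells at 50 µM, 7.0% with DON and 4.94% in the control, and cDC1-like cells were 3.49%, 9.08% and 16.3%. The cDC2-like class was 14.7%, 22.6% and 24.4%, and the pDC-like class 14.6%, 21.9% and 23.8%. Further clusters led by the cycle genes Mcm3, Hist1h1b, Nusap1 and Cdc20 matched no cell type and stayed unnamed.

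Progenitor-like cells, the precursors of the culture, had the highest summed level of the 12 classes large enough to rank, at 966 CPM at 50 µM, 957 with DON and 947 in the control. The cluster led by Mcm3, a subunit of the replication helicase, followed at 708, 699 and 650.4 CPM. The gap between these is wider than the spread of either over the 3 libraries. The clusters led by Hist1h1b and Nusap1 had 649 and 634 CPM at 50 µM, 550.0 and 498 with DON, and 575 and 491 in the control, and their ranges over libraries overlapped. B lineage-like, cDC1-like and Cdc20-led cells lay between 406 and 525 CPM in every library, with overlapping ranges. cDC2-like cells had 423, 376 and 360.4 CPM, monocyte or macrophage-like cells 405, 319.5 and 365 CPM, and pDC-like cells 412, 314 and 297 CPM, in the order 50 µM, DON, control, which also overlap. Mature DC-like cells, the Ccr7-positive state that migrates to lymph nodes, had 214, 209 and 223 CPM. Neutrophil-like cells had 326, 197 and 153 CPM, the widest spread of any class. Of the progenitor-like cells, 82.3%, 92.2% and 82.5% were cycling, against 3.65%, 2.96% and 2.51% of the mature DC-like cells. Progenitor-like cells also had the deepest profiles of these, with a median of 14726, 17913 and 15871 UMIs, against 5634, 6981 and 5930 in mature DC-like cells. Inside the progenitor-like class, the summed level was 973, 958 and 947 CPM in cycling cells. In its resting cells, of which there were 186, 24 and 50, it was 875, 975 and 933 CPM. With no CPM added, the log2 ratio of progenitor-like over mature DC-like summed levels was 2.17, 2.19 and 2.09, and 1.52, 1.64 and 1.69 with the marked doublets kept.

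**Figure D3:**
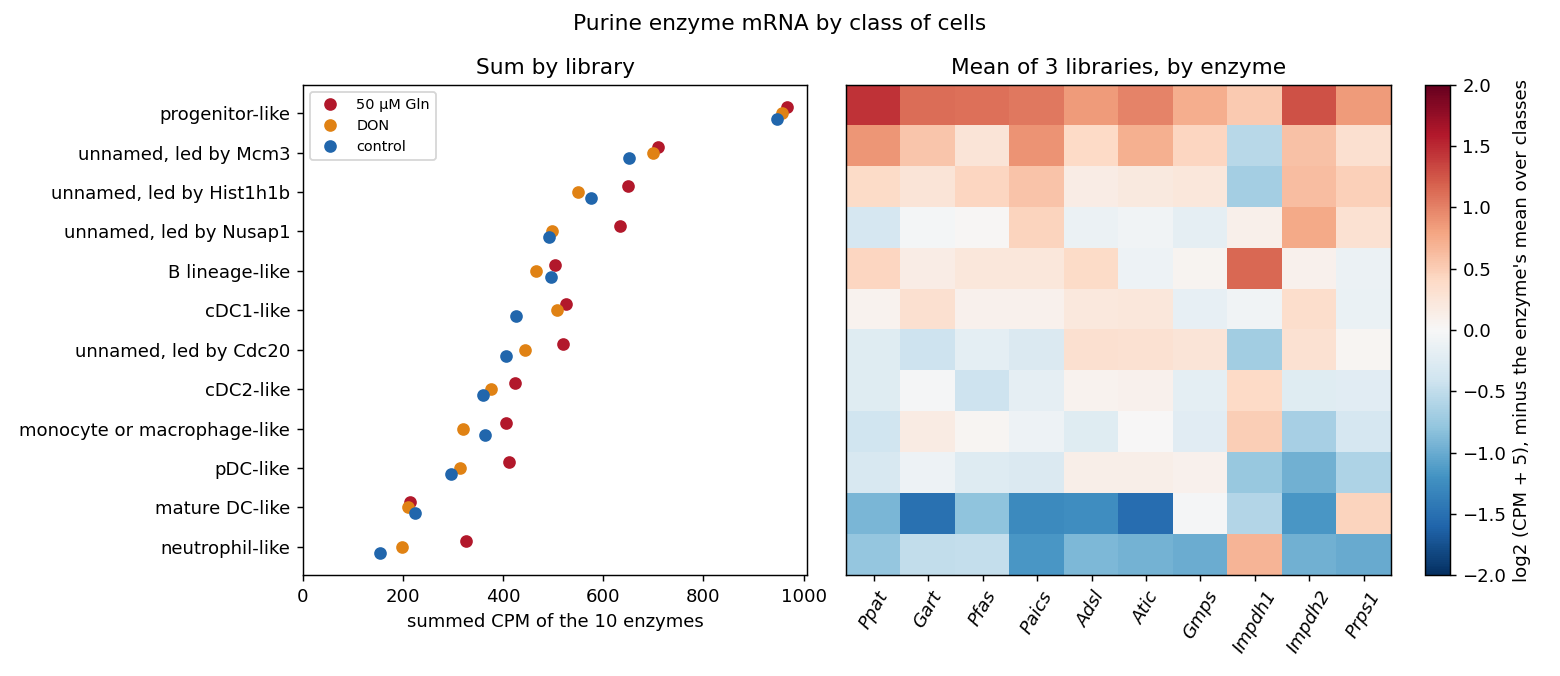
Left, summed level of the 10 enzymes (CPM, axis from 0) in each class, 1 point per library. Right, each enzyme's log2 (CPM + 5) averaged over the 3 libraries, minus that enzyme's mean over the classes; progenitor-like cells are highest for 9 enzymes, and B lineage-like cells for Impdh1.

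By enzyme, 9 of the 10 members were highest in progenitor-like cells. Ppat there had 64.5 CPM at 50 µM, 74.0 with DON and 67.9 in the control, against 6.31, 13.4 and 9.52 CPM in mature DC-like cells. Pfas had 27.5, 23.7 and 19.6 CPM in progenitor-like cells and 1.80, 3.19 and 2.82 CPM in mature DC-like cells. Impdh2 had 317, 284 and 300.1 CPM in progenitor-like cells and 53.2, 49.8 and 50.8 CPM in mature DC-like cells. For each of these 3 the lowest progenitor-like library was far above the highest mature DC-like one. In the type 1 cells that the study's title concerns, Gart had 43.4 CPM at 50 µM, 52.0 with DON and 38.7 in the control, and Impdh2 had 184, 155 and 132 CPM. In cDC2-like cells Gart had 37.0, 32.3 and 32.8 CPM, and Impdh2 117, 93.1 and 96.1 CPM. Impdh2 was thus higher in cDC1-like than in cDC2-like cells in each library, and 33.8%, 44.6% and 34.2% of cDC1-like cells were cycling against 5.93%, 6.66% and 4.94% of cDC2-like cells. The part of that difference in the levels was not tested.

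On the mean over libraries, mature DC-like cells were lowest for 7 members, but not for all. Gmps there had 69.4 CPM at 50 µM, 50.4 with DON and 61.7 in the control, in the middle of the order, close to pDC-like cells with 76.2, 59.9 and 61.8 CPM. Prps1 had 27.9, 28.1 and 24.3 CPM in mature DC-like cells, the third highest class, against 37.2, 39.1 and 35.2 CPM in progenitor-like cells. So Prps1 and Gmps were not at their lowest in these largely resting cells. Prps2, the partner isozyme of Prps1, was lower there than over all cells, as given with the isozymes. Atic had 9.01, 17.2 and 16.6 CPM and Adsl 5.41, 4.47 and 3.53 CPM, the lowest of the classes for both. The counts behind Atic and Adsl are small, with 6 to 10 UMIs for Adsl and 10 to 47 for Atic per library. pDC-like cells, the type I interferon producers, had on the same mean the lowest Impdh1, at 1.71, 1.30 and 1.22 CPM, and the second lowest Prps1, at 11.5, 8.76 and 10.4 CPM.

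Cycling and resting cells were also compared inside 3 classes, where the members' medians lay below those over all cells. In cDC2-like cells, 4 of the members were at least 1.5-fold higher in cycling than in resting cells in all 3 libraries (4.85% of genes), Ppat, Gart, Paics and Impdh2. Ppat there had 47.7 CPM in cycling and 17.4 CPM in resting cells at 50 µM, 51.2 and 14.1 CPM with DON, and 41.6 and 12.8 CPM in the control. Its ratios of 1.23, 1.56 and 1.39 were above those over all cells. In cDC1-like cells none was in all 3 (7.25%), and in the Mcm3-led cluster 1 was, Ppat (3.1%). The members' medians were 0.61, 0.70 and 0.66 in cDC2-like cells, 0.48, 0.37 and 0.36 in cDC1-like cells and 0.39, 0.45 and 0.41 in the Mcm3-led cluster. Other classes had too few cells of one state for these ratios, and their summed levels were not always higher in cycling cells. In the Cdc20-led cluster, cycling cells had 511, 436 and 410 CPM at 50 µM, with DON and in the control. Its few resting cells (12, 23 and 19) had 701, 528 and 272 CPM.

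At 50 µM over control, the members' medians inside classes were highest in neutrophil-like and pDC-like cells and near 0 in progenitor-like, mature DC-like and B lineage-like cells. In progenitor-like cells the members' median was 0.02 (all genes 0.04), from -0.20 (Gmps) to 0.40 (Pfas), and none was 1.5-fold higher (1.24%). In cDC1-like cells the median was 0.17 (all genes 0.07), with none higher (2.36%). In cDC2-like cells it was 0.23 (all genes 0.12), with none higher (2.71%) and Pfas at 0.54. The cDC2-like mix differed between libraries. Its Ltb-led cluster held 340 of 1350 cells at 50 µM, 148 of 1893 with DON and 159 of 2309 in the control. Its Fcgrt-led cluster held 245, 699 and 676 of these cells in the same order. The part of that mix in the ratios was not tested. In pDC-like cells the median was 0.44 (all genes 0.15), with all 10 above 0 and 1 past 1.5-fold (3.72%), Pfas at 0.69. Pfas averaged below the 10 CPM of the background there. It had 71 UMIs and 10.1 CPM at 50 µM, 51 UMIs and 4.43 CPM with DON, and 54 UMIs and 4.38 CPM in the control. The pDC-like cells were not the same mix in each library. The share held by the pDC-like cluster with the highest enzyme level was 32.6%, 23.2% and 17.1%, and 18.0%, 11.5% and 7.25% of its cells were cycling. Inside that cluster the summed level was 544, 397 and 378 CPM, and in the largest pDC-like cluster 301, 256 and 259 CPM.

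Among the remaining classes, the monocyte or macrophage-like one had a median of 0.13 at 50 µM (all genes 0.02), with none higher (2.42%). Its Clec4n-led cluster held 447 of 584 cells at 50 µM, 252 of 488 with DON and 231 of 445 in the control, and the part of that mix was not tested. Mature DC-like cells had 0.03 (all genes 0.02), with 1 member 1.5-fold lower, Atic at -0.62 (5.6% of genes lower). B lineage-like cells had 0.02 (all genes 0.06), with 1 lower, Impdh1 at -0.89 (2.33%). Among the unnamed clusters, that led by Hist1h1b had a median of 0.09 (all genes 0.10) and none past 1.5-fold (3.22%). That led by Mcm3 had 0.25 (all genes 0.09) with Adsl (0.60) and Pfas (0.59) higher (3.25%). The Cdc20-led cluster had 0.30 (all genes 0.09) with Adsl (0.68) and Impdh1 (0.62) higher (4.74%). Impdh1 averaged below the 10 CPM of the background there. The Nusap1-led cluster had 0.10 (all genes 0.10) with Impdh2 (0.59) higher (6.11%). Outside the neutrophil-like class no more than 2 members passed in any of these classes at 50 µM.

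Neutrophil-like cells stood apart, with 6 of 10 members 1.5-fold higher at 50 µM, Gmps (1.66), Paics (1.12), Impdh2 (1.08), Atic (0.78), Ppat (0.71) and Prps1 (0.59). There, however, 21.2% of all genes were as much higher and their median was 0.26. Gmps had 54.1 CPM (78 UMIs) at 50 µM, 28.6 (47 UMIs) with DON and 13.6 (13 UMIs) in the control. With DON, 3 members were higher, Gmps (0.85), Adsl (0.79) and Paics (0.65), against 8.3% of genes. Prps1 and Adsl averaged below the 10 CPM of the background in this class. This class joins a deep cluster led by Elane, a gene of granulocyte precursors, and a shallow one led by Ltf, of later stages. The summed level was 590.5, 346 and 359 CPM in the Elane-led cluster and 80.1, 52.7 and 43.4 CPM in the Ltf-led one. The Elane-led cluster gave 48.1%, 49.2% and 34.7% of the class's UMIs from 55, 60 and 30 cells. The part of this mix in the class ratios was not tested.

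With DON over control, no class median went past 0.24 in size. That value was in cDC1-like cells (all genes 0.08), where all 10 members were above 0, from 0.05 (Gmps) to 0.38 (Gart). Of these cells 44.6% were cycling with DON and 34.2% in the control, and the part of that was not tested. Among cDC1-like cells apart, the median was 0.25 in cycling (all genes 0.04) and 0.17 in resting ones (all genes 0.08), with 1 member below 0 in each. The median was 0.09 in cDC2-like (all genes 0.06), 0.05 in pDC-like (0.02) and 0.03 in progenitor-like cells (0.02). It was -0.12 in both B lineage-like (all genes -0.01) and monocyte or macrophage-like cells (0.02). In the B lineage-like class Impdh1 was 1.5-fold lower, at -0.65 (2.75% of genes). It had 33 UMIs and 13.4 CPM at 50 µM, 33 UMIs and 16.8 CPM with DON, and 34 UMIs and 29.2 CPM in the control, so the exact intervals of DON (11.6 to 23.6) and control (20.2 to 40.8) overlapped.

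**Figure D4:**
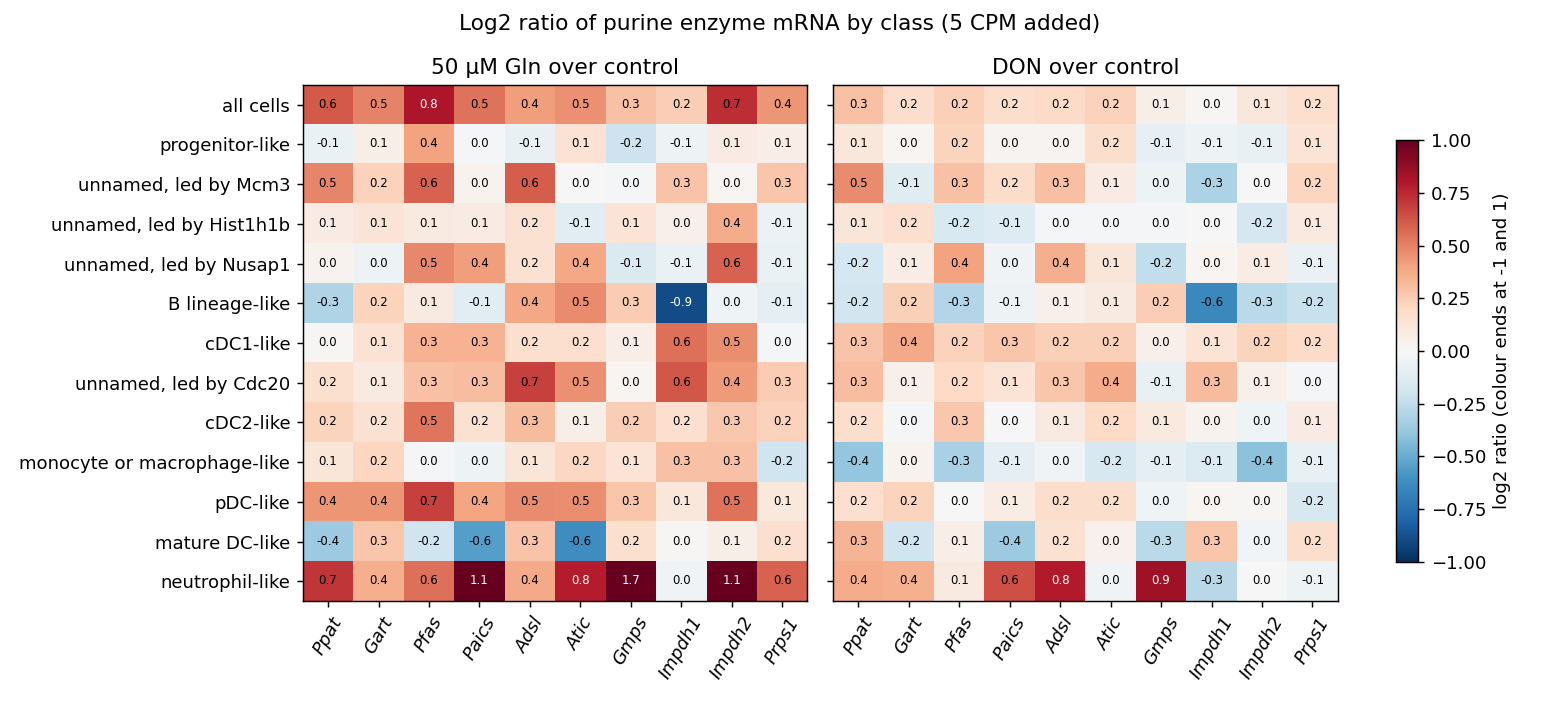
Log2 ratio, after adding 5 CPM, of each enzyme at 50 µM glutamine over control (left) and with DON over control (right), in all cells and in each class; red is higher and blue lower than the control, and colour ends at -1 and 1. The progenitor-like row is near 0 except for Pfas (0.40), and the neutrophil-like row has the highest value, Gmps at 1.66.

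The isozyme pairs were compared between classes as the share of a pair's UMIs. A share is not corrected for differences in capture between the 2 genes, so only classes are set against each other. Impdh1 took 3.44% of Impdh1 plus Impdh2 UMIs at 50 µM (exact binomial 95% interval 3.18 to 3.71%), 4.03% with DON (3.68 to 4.41%) and 4.30% in the control (3.91 to 4.71%). In cycling cells it took 2.70%, 2.76% and 2.90%, and in resting cells 6.18%, 6.96% and 6.11%. The share in resting cells was above that in cycling cells in every library, while the level of Impdh1 itself was nearly the same in both. Among the 12 ranked classes it was highest in B lineage-like (9.04%, 12.8% and 17.3%), neutrophil-like (11.5%, 18.7% and 23.2%) and monocyte or macrophage-like cells (12.1%, 12.9% and 11.3%). cDC2-like cells had 8.03%, 8.65% and 8.13%, against 4.11%, 2.92% and 2.78% in cDC1-like cells and 2.14%, 2.43% and 2.29% in pDC-like cells. The share thus separated the 2 conventional types in all 3 libraries. More of the cDC1-like than of the cDC2-like cells were cycling, and the part of that in the share was not tested. The share was lowest in the Hist1h1b-led cluster, with 0.793%, 1.00% and 0.907%, but for 0.512% with DON in the Mcm3-led cluster and 0.264% in the control in the Cdc20-led cluster.

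Prps1 took 41.2%, 40.2% and 40.8% of Prps1 plus Prps2 UMIs over all cells at 50 µM, with DON and in the control, so this share hardly differed between treatments. It was 44.3%, 46.0% and 48.3% in cycling and 33.0%, 30.8% and 33.0% in resting cells. The classes ranged more widely. In mature DC-like cells Prps1 took 88.6% (73.3 to 96.8%), 74.6% (61.6 to 85.0%) and 82.1% (72.3 to 89.6%), and in pDC-like cells 18.2%, 16.3% and 17.7%. Progenitor-like cells had 47.0%, 48.3% and 49.4%, and cDC2-like cells 41.4%, 41.9% and 41.4%. Prps2 itself had 3.60, 9.58 and 5.29 CPM in mature DC-like cells and 51.6, 45.0 and 48.4 CPM in pDC-like cells. Prps1l3, a relative named for its likeness to Prps1, had 8.44, 7.82 and 7.59 CPM over all cells, and how reads shared between them were counted is not given in the sources used here.

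**Figure D5:**
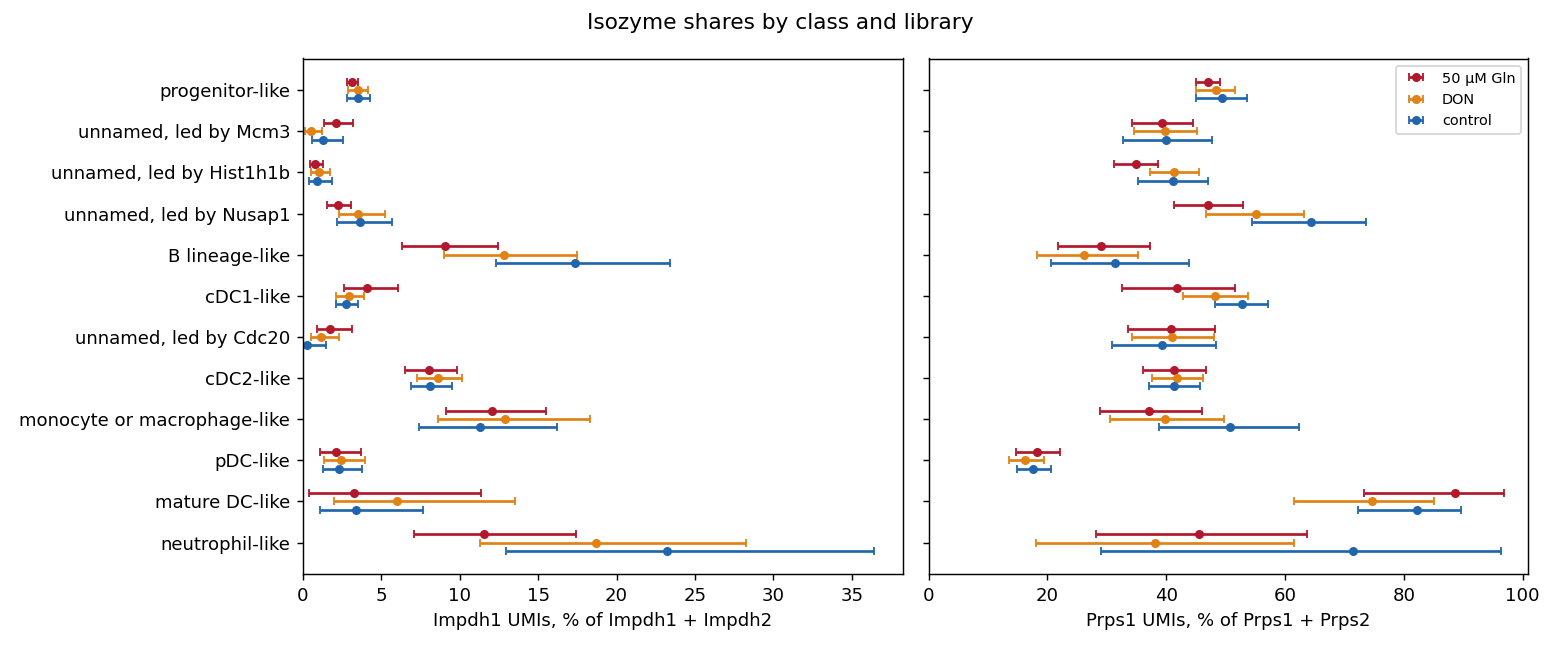
Share of Impdh1 in the UMIs of Impdh1 plus Impdh2 (left) and of Prps1 in those of Prps1 plus Prps2 (right), in percent with exact binomial 95% intervals, by class and library. Mature DC-like cells have the highest Prps1 share, 74.6 to 88.6%, and pDC-like cells the lowest, 16.3 to 18.2%.

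Most members shared one pattern over classes and libraries. Over 42 points (14 classes in 3 libraries), Pearson's r of each member with the mean of the other 9 was 0.88 for Paics, 0.87 for Ppat, 0.85 for Impdh2, 0.80 for Pfas, 0.80 for Adsl, 0.79 for Gart, 0.71 for Atic, 0.68 for Gmps, 0.55 for Prps1 and 0.06 for Impdh1. These describe the points only, since points share libraries, depth and cell cycle. Impdh1 was the member whose pattern was unlike the others. Among 2867 genes of at least 50 CPM, those with the pattern most like the members' mean were Hspd1 (r = 0.96), Serbp1 (0.94), Polr2f (0.93), Pa2g4 (0.93), Cct6a (0.93) and Nop56 (0.92). Hspd1 and Cct6a encode chaperonin subunits, Polr2f a subunit shared by the RNA polymerases, and Nop56 a protein of the nucleolar particles that modify ribosomal RNA.

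Genes around the pathway were described from lists by their counts at 50 µM over control in all cells, beside the 5.91% of genes higher. Of the folate pathway, which supplies the formyl groups used by Gart and Atic, 7 of 9 measured genes were 1.5-fold higher, with a median of 0.67. Shmt2, the mitochondrial serine hydroxymethyltransferase, had 63.7 CPM at 50 µM, 21.0 with DON and 17.2 in the control (1.63). Mthfd2, a mitochondrial folate dehydrogenase, had 128, 63.8 and 68.4 CPM (0.86). Of 9 measured genes listed as glutamine-using enzymes outside purine synthesis, 2 were higher (the list also holds Pdxk and Carnmt1, which are not known as such). Asns, asparagine synthetase, had 60.8, 4.24 and 4.42 CPM (2.80), and Cad, which starts pyrimidine synthesis, 21.8, 13.1 and 11.4 CPM (0.71). Of 5 pyrimidine genes 2 were higher, Tk1 (0.80) and Umps (0.70), and of 6 deoxynucleotide genes 3, among them Rrm1 (0.97) and Dut (0.69). Of 20 cycle genes beside Mki67 and Top2a, 14 were higher, with a median of 0.67, for example Cdca7 (0.99) and Mcm5 (0.87).

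Salvage of purines did not follow. None of 11 measured salvage and breakdown genes was 1.5-fold higher or lower, and the median was -0.09. Pnp, purine nucleoside phosphorylase, had 189 CPM at 50 µM, 269 with DON and 252 in the control (-0.40), and Itpa, which clears inosine triphosphate, had 37.7, 32.5 and 27.0 CPM (0.42). In the branch to AMP and its kinases 0 of 8 were past 1.5-fold (median 0.20), with Ampd2, an AMP deaminase, at 14.8, 8.92 and 8.35 CPM (0.57). Of the other PRPP synthesis genes 0 of 3 were (0.29), with Prps2 at 0.44 and Prpsap2 at 0.29. Of 12 measured regulators 2 were higher, Atf4 at 121, 80.6 and 76.1 CPM (0.64) and Myc at 42.6, 28.9 and 26.2 CPM (0.61). With DON, no measured gene of any of the 9 lists was 1.5-fold higher or lower. Of all genes, 0.179% were higher and 0.906% lower, so few or none would be past the mark at that share. The list medians lay between 0.02 (salvage) and 0.40 (cycle genes). Among the genes with the largest DON ratios were Ccnb1 (0.53), Cenpf (0.50), Mxd3 (0.45), Tyms (0.43), Tfdp1 (0.26), Ctps2 (0.23) and Ctps (0.16) in their lists.

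The lists were described between cycling and resting cells as well, where 12.1%, 12.7% and 12.5% of all genes were 1.5-fold higher and 12.4%, 9.88% and 8.58% lower at 50 µM, with DON and in the control. Of the 9 folate genes, 6 were 1.5-fold higher in cycling cells at 50 µM, 5 with DON and 5 in the control, led by Tyms, thymidylate synthase (2.81, 3.19 and 3.20). Pyrimidine genes gave 4 of 5 in each library and deoxynucleotide genes 4 of 6. Salvage gave 2 of 11 higher, near the share of all genes, and 1 lower in each, Samhd1, which degrades deoxynucleotides and was named after its value was seen, at -1.38, -1.10 and -0.98. Of the PRPP family beside Prps1, none of 3 was higher, with Prps2 at 0.33, 0.27 and 0.16, against the 0.87, 0.98 and 0.87 of Prps1.

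In progenitor-like cells, where the members' median at 50 µM over control was 0.02, a few genes of these lists differed more. Of 12 measured folate genes 2 were 1.5-fold higher, of 9 listed glutamine-using enzymes 1 and of 12 regulators 1, beside 1.24% of all genes. No measured gene of the other lists was 1.5-fold higher or lower, and the list medians lay between -0.14 (deoxynucleotide) and 0.13 (folate). Asns had 129.8 CPM at 50 µM, 13.3 with DON and 19.2 in the control (2.48). Mthfd2 had 179.8, 68.3 and 72.0 CPM (1.26), and Atf4 had 165, 84.3 and 80.4 CPM (0.99). Shmt2 had 127, 59.0 and 59.9 CPM (1.02), whereas Cad, at 38.3, 37.7 and 36.7 CPM, gave 0.06 and Myc 0.44. Asns and Shmt2 helped to define the larger progenitor-like cluster, so their levels in the class are partly set by how it was built. In pDC-like cells, where the members' median was 0.44, 9 of 12 measured cycle genes were 1.5-fold higher at 50 µM, with a median of 1.17, and 2 of 7 folate genes, beside 3.72% of all genes and a median of 0.15.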

How the data were processed

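The authors deposited UMI counts per gene and called cell barcode for each library, not normalized. Cell Ranger 6.0.0 is named per the file headers and Cell Ranger 3.1.0 with mm10 per the submitters' processing notes; the gene annotation is not given in the sources used here. Gene identifiers matched GENCODE vM21 (GRCm38) for 99.8% of 32285 genes, which gave the positions.

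Barcodes with at least 1000 UMIs, 500 genes and at most 10% mitochondrial UMIs were kept (9649 at 50 µM glutamine, 8887 with DON, 10367 in control). Scrublet (simulated doublets at 2 per cell, expected rate 0.08) marked 4.97%, 5.85% and 8.62%, which were removed; 51.3%, 55.0% and 63.4% of simulated doublets scored above its threshold. From 2000 variable genes without the 10 members, 30 principal components, 20 neighbours and Leiden clustering at resolution 1 (seed 1) gave 24 clusters. A cluster took the name of the cell type, of 14 listed, with most markers among its top 10 genes. It needed at least 1 such marker, at least 3 markers at least 2-fold higher, and no other type with the same score. The Fcgrt-led and Ltb-led cDC2-like clusters and the Clec4n-led monocyte or macrophage-like cluster had only 1 marker in the top 10, so these names are less firm. RNA free in the droplets was not corrected.

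UMIs were summed per class and library and scaled to CPM. Log2 ratios have 5 CPM added, and 1.5-fold was the mark. Genes averaging at least 10 CPM over the compared groups form the background. Intervals at 95% are exact Poisson, conditional binomial or Clopper-Pearson. The scripts were tested on simulated data. Named genes are the members, up to 2 per list and treatment with the largest ratios among genes of at least 10 CPM, and the 6 most alike in pattern; the genes of progenitor-like cells repeat these. Some genes that the rule selects are not reported here. The 10 members, 9 lists (111 genes, of which Adss1 and Adss2 are not among the symbols of the files) and 13 alternatives were chosen with earlier results of these data known. Python 3.11.15, scanpy 1.11.5, leidenalg 0.10.2, scikit-learn 1.9.0, numpy 2.4.6 and scipy 1.17.1 were used.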

Additional observations from a re-analysis of the deposited data

Results flagged for a closer look

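For 2 members the ratio at 50 µM glutamine over control was past 1.5-fold in opposite directions in 2 classes, and neither difference between classes was tested. Atic was at -0.62 in mature DC-like cells, from 10 UMIs at 50 µM and 47 in the control, and at 0.78 in neutrophil-like cells, from 52 UMIs at 50 µM and 18 in the control. Impdh1 was at -0.89 in B lineage-like cells, from 33 UMIs at 50 µM and 34 in the control, and at 0.62 in the Cdc20-led unnamed cluster, from 11 UMIs at 50 µM and 1 in the control.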

How the results depend on the processing

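Of 234 recomputed main values under 13 alternatives, 209 kept their size and 25 moved. The members' all-cell median at 50 µM (0.48) was 0.32 with median-of-ratios scaling, 0.18 with class weights and 0.32 with cycling weights, and the count past 1.5-fold (3) was 1, 0 and 0; with DON the median (0.18) was 0.079 with cycling weights. Median-of-ratios scaling gave 0.19 in cycling cells (0.33) and 0.11 in resting cells (0.29) at 50 µM, and the thinned cycling call gave 0.48 in resting cells. The cycling over resting median at 50 µM (0.79) was 0.69 with 10 CPM added, 0.93 with median-of-ratios scaling and 0.32 with the thinned call, which left 2 of 7 members past 1.5-fold; with DON (0.82) it was 0.66 with 10 CPM and 0.51 thinned; in the control (0.74) it was 0.85 with 1 CPM, 0.59 with 10 CPM and 0.49 thinned, with 3 of 6 past. Clustering each library on its own gave 0.21 in progenitor-like cells at 50 µM (0.02) and 1.95 for progenitor-like over mature DC-like in the control (2.09); doublets kept gave 1.52, 1.64 and 1.69 at 50 µM, with DON and in the control (2.17, 2.19 and 2.09). The cause of each was not tested. Of 136 main log2 values 2 changed sign, both near 0: cDC2-like DON at -0.08 when libraries were clustered apart, and progenitor-like 50 µM at -0.04 with median-of-ratios scaling. Single-member values changed sign in 10 of 400. No paired analysis was possible because each group has 1 library. Low counts limit single values, such as Adsl with 6 to 10 UMIs per library in mature DC-like cells.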
